A study of Mus musculus with 18 samples.

Results

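The protocadherin genes were read in the whole brain of mouse pups during the second postnatal week, when synapses form. Members were all genes whose annotated symbol starts with Pcdh and that had a probe set (the group of oligonucleotides that reads one transcript) annotated to that symbol alone. Each gene was represented by its brightest probe set by mean RMA value, a log2 measure of array signal. This gave 35 genes out of 18194 on the array, of which 23 belong to the clustered protocadherins (22 Pcdhb genes, Pcdhgc4 and 0 Pcdha genes) and 12 are non-clustered. There were 3 genotypes of pups, wild-type (+/+), heterozygous (+/-) and homozygous (-/-, Mt-KO), for a knockout of metallothionein genes that the labels abbreviate as Mt, bred on C57BL/6J by a minimum of 7 backcross generations and derived from a brother-sister cross. On postnatal days 7 and 8 each pup had 2 injections spaced by 4 h of either lead acetate at 50 mg/kg or saline, and whole brains were collected 6 h later on day 8. Male and female pups were used, and the RNA of 5 pups was pooled for each of the 6 combinations of genotype and treatment. Each pool was read on 1 Affymetrix mouse array, so no combination was replicated.

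Protocadherins are adhesion proteins of the cadherin superfamily. In the clustered families each neuron switches on a small random choice of promoters, and the resulting mixture of proteins binds like mixtures on other cells, which lets a neuron tell its own branches from those of its neighbours. Alpha and gamma genes splice a variable exon to constant exons shared by their cluster, whereas each beta gene is a single exon with an end of its own, which lets a probe set read 1 beta gene. Most non-clustered protocadherins belong to the delta group, whose members are expressed in particular circuits and act in axon growth, sorting and synapse formation.

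The 4 members that passed the test of an interaction between lead and intact alleles were the non-clustered genes Pcdh17, Pcdh10, Pcdh18 and Pcdh20. All 4 coefficients were negative, as were 365 of the 412 over all genes that passed. For each of the 4, the 250 bases before a transcript start listed by RefSeq are printed here. They are RefSeq sequences on GRCm38.p6, read 5′ to 3′ on the strand of the gene, from chr14:84443313-84443562 (plus strand, Pcdh17), chr3:45378148-45378397 (plus strand, Pcdh10), chr3:49757317-49757566 (minus strand, Pcdh18) and chr14:88471397-88471646 (minus strand, Pcdh20). For Pcdh18 the gene has a further start upstream, so 67 of the 250 bases lie inside its gene bounds. Capitals mark the CCAAT box, a common promoter element, found as CCAAT or, on the other strand, as ATTGG.
Pcdh17: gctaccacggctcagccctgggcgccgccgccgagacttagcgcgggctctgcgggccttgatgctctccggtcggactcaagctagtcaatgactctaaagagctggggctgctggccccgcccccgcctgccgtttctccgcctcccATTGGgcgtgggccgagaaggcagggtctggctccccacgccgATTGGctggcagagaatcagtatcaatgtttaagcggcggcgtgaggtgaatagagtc
Pcdh10: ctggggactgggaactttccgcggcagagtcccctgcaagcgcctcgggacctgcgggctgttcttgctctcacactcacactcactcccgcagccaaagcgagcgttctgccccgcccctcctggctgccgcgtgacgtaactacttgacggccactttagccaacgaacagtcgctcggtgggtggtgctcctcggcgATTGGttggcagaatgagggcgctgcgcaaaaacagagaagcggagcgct
Pcdh18: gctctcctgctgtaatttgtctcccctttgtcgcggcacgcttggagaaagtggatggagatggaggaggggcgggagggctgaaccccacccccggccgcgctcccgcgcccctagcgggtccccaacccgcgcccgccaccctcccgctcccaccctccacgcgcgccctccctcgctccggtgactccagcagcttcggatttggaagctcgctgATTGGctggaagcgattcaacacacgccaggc
Pcdh20: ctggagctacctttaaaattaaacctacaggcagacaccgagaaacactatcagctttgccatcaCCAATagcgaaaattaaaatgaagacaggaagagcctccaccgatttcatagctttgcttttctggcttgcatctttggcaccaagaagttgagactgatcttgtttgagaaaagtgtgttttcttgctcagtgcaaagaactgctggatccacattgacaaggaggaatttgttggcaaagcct

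The first 3 of these stretches are rich in G and C, with 64.8% for Pcdh17, 63.2% for Pcdh10 and 68.0% for Pcdh18, and that of Pcdh20 is not, with 42.4%, against a median of 52.4% over 32851 promoters of the same length. CpG pairs numbered 21, 22 and 23 in the first 3 and 3 in Pcdh20, against a median of 6. Promoters were matched for 9 members, namely Pcdh7, Pcdh8, Pcdh9, Pcdh10, Pcdh15, Pcdh17, Pcdh18, Pcdh19 and Pcdh20; for Pcdh7, Pcdh9 and Pcdh15 the whole stretch lies within the gene bounds, before an internal start. Motifs were searched on both strands, and matches of different motifs were allowed to overlap. CCAAT was present in 8 of the 9, all but Pcdh7, and in 33.8% of all promoters. CGCT, the core letters of the element shared by clustered protocadherin promoters, was present in 9 of 9, and in 55.7% of all promoters. The GC box GGGCGG was present in 4 (Pcdh10, Pcdh17, Pcdh18 and Pcdh19) against 32.7%, and TATAAA in 2 (Pcdh8 and Pcdh15) against 12.4%. The core of the metal response element, searched as TGCACNC or TGCGCNC, was found in 1, Pcdh19, against 21.4% of all promoters. A match is a run of letters in this window and no evidence of binding.

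Mt1, which encodes the metal-binding protein metallothionein 1, read 13.17 with saline and 13.30 with lead in wild-type pups, 12.45 and 12.87 in heterozygotes and 11.68 and 11.71 in Mt-KO pups (RMA, log2). It was thus lowest in both Mt-KO pools, as their label has it. Arrays correlated with each other at 0.991 to 0.997 over all probe sets. The wild-type saline pool stood apart on several measures. Its Gapdh 3′ minus 5′ control signal, a sign of how far labelling reached along the transcript, was 1.19 against 0.54 to 0.82 elsewhere, and its spread over genes was the widest (SD 1.25 against 1.12 to 1.23). Tests used the upper 60% of genes by brightness, 10916 genes, with a limit at a mean RMA value of 9.42. Of the 35 members 16 were tested, namely 7 of the 23 clustered genes (Pcdhb3, Pcdhb5, Pcdhb7, Pcdhb9, Pcdhb17, Pcdhb20 and Pcdhb21) and 9 of the 12 non-clustered genes. The p-values come from limma fits in which the genotypes stood in as replicates of lead and the treatments as replicates of genotype, with 2 residual degrees of freedom. The prior was infinite in these fits, so genes of like brightness shared 1 estimate of spread and the scatter of a single gene between pools did not count.

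The range from lowest to highest pool had a median of 0.49 over the 16 tested members, from 0.35 to 1.38 (Pcdh17), against 0.34 over all genes tested. Over all 35 members the median range was 0.40. The saline-treated wild-type pool was the highest for 12 of the 16 tested members (75.0%), for 8 of the 9 non-clustered ones (88.9%) and for 4 of the 7 clustered ones (57.1%). The same pool was highest for 19 of all 35 members (54.3%) and for 41.6% of all genes tested. The lowest pool was Mt-KO saline for 6 tested members, wild-type lead for 5, heterozygous saline for 4 and wild-type saline for 1. The part that the control signals and the spread of the wild-type saline array played in this was not tested.

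**Figure D1:**
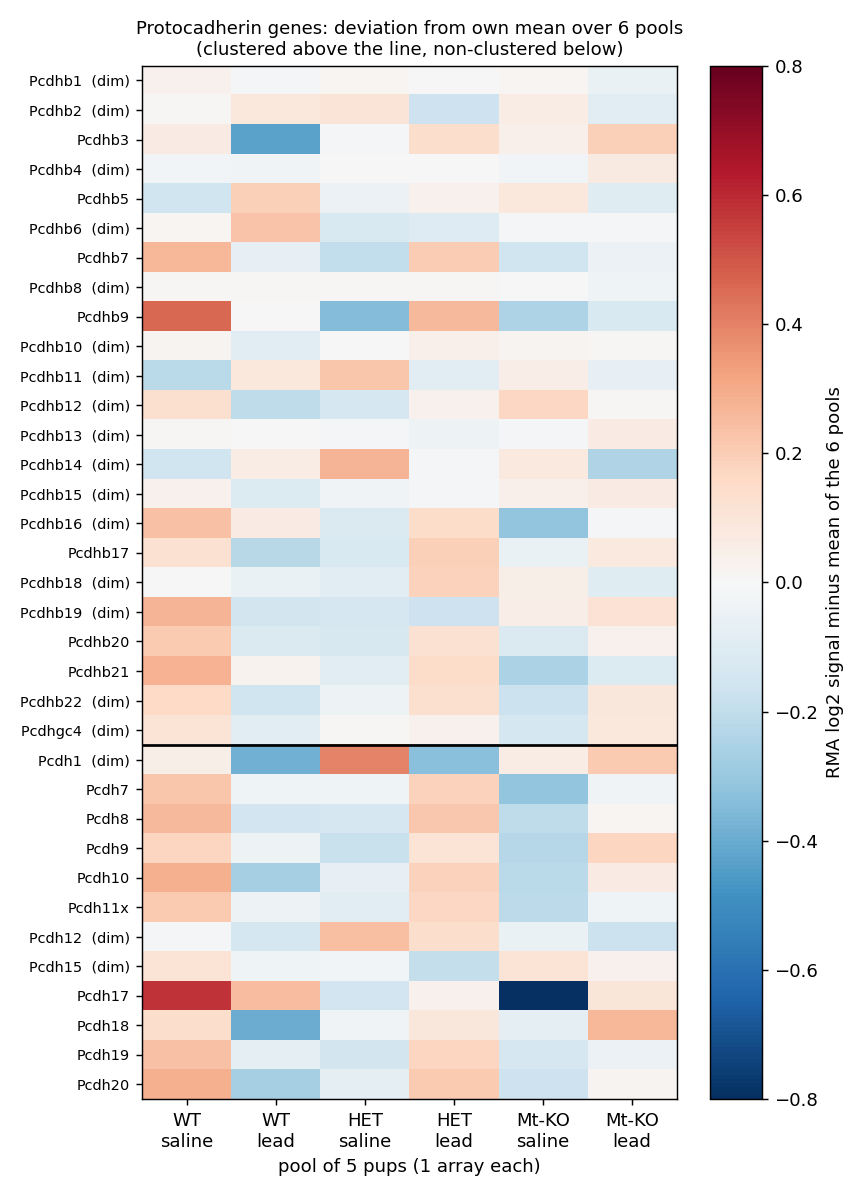
Deviation of each of the 35 protocadherin genes from its own mean over the 6 pools (RMA, log2), with 1 array per column and no replicates; dim marks the 19 members below the brightness limit. Most tested members are highest in the wild-type saline column, and Pcdh17 has the widest range, 1.38, with its lowest value in the Mt-KO saline column.

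The first question was which protocadherins differ between genotypes. Pcdh17 was lower in the Mt-KO pools and was the only member of the 16 tested to pass the threshold against wild-type, where 0.431% of all genes tested passed. Pcdh17 is a non-clustered protocadherin of the delta-2 group that acts in the growth of axon bundles and in presynaptic assembly in cortical and basal ganglia circuits. Its brightest probe set, 1453070_at, read 12.46 in wild-type saline, 12.13 in wild-type lead, 11.73 in heterozygous saline, 11.92 in heterozygous lead, 11.08 in Mt-KO saline and 11.98 in Mt-KO lead (RMA, log2). Both Mt-KO pools lay below both wild-type pools, and the saline Mt-KO pool lay far below all others. The fitted difference between Mt-KO and wild-type was -0.76 (SE 0.19, limma, adjusted p = 0.0175), a 1.70-fold lower signal. Heterozygous against wild-type it was -0.47 (SE 0.19, adjusted p = 1), and Mt-KO against heterozygous -0.30 (SE 0.19, adjusted p = 1), which did not pass. In whole-brain RNA, fewer cells of a type and less RNA per cell cannot be told apart.

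For the brightest probe set of Pcdh17, the difference between Mt-KO and wild-type was mostly in the saline pools. Relative to the median gene of each pair of pools, Mt-KO minus wild-type was -1.23 in saline and -0.24 in lead, with 1 pool against 1 and hence no test. The second probe set of Pcdh17, 1436920_at, read 12 with saline and 11.95 with lead in wild-type pups, 11.47 and 11.84 in heterozygotes, and 11.25 and 11.50 in Mt-KO pups. It was likewise highest in wild-type and lowest in Mt-KO. Its mean difference was -0.59 as deposited, made of -0.74 in saline and -0.44 in lead. As deposited, the first probe set had -1.38 and -0.15, and the median over all genes tested was -0.15 and 0.10. The difference of the second probe set was thus less confined to the saline pools. The call of the first probe set did not hold widely. It was kept with the upper 40% of genes (adjusted p = 0.0256) and lost with the other summaries, scalings, filters and priors tried, where the difference lay between -0.68 and -1.04. The difference was -0.32 (adjusted p = 0.0893) without the wild-type saline pool and -0.28 (adjusted p = 1) without the Mt-KO saline pool. Without the wild-type lead pool it was -1.21 and passed (adjusted p = 4.06e-06), and without the Mt-KO lead pool it was -1.25 (adjusted p = 1). Leaving out a heterozygous pool kept it at -0.76 and also lost the call (adjusted p = 0.884 without saline and 0.893 without lead).

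**Figure D2:**
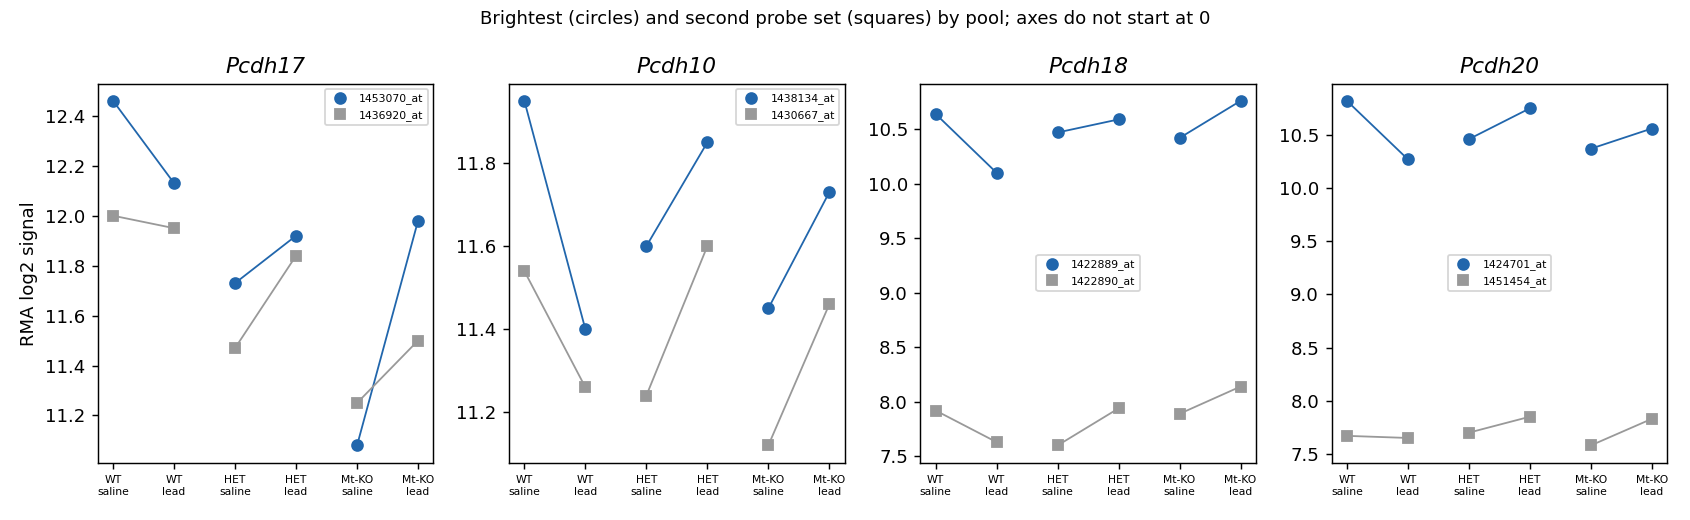
RMA log2 signal of Pcdh17, Pcdh10, Pcdh18 and Pcdh20 in each pool, for the brightest (circles) and the next brightest probe set (squares), with a line from the saline to the lead pool of each genotype and 1 array per point. For all 4 genes the line of the brightest probe set goes down in wild-type and up in heterozygous and Mt-KO pups; for Pcdh17 it goes from 12.46 to 12.13 in wild-type and from 11.08 to 11.98 in Mt-KO.

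No other member passed between Mt-KO and wild-type. Among the remaining non-clustered members the differences were -0.27 for Pcdh7, -0.20 for Pcdh11x, -0.17 for Pcdh19, -0.14 for Pcdh8, -0.09 for Pcdh10 and Pcdh9, -0.08 for Pcdh20 and 0.22 for Pcdh18, each with an adjusted p of 1. Among the clustered members Pcdhb9 came nearest, at -0.42 (SE 0.15, adjusted p = 0.492), and Pcdhb21 stood at -0.33 and Pcdhb3 at 0.30. Over the tested members the median difference was -0.09 relative to that of all genes, with 13 of 16 below the median gene, and it was -0.06 for the clustered and -0.12 for the non-clustered ones. The sign of this difference depended on the wild-type pool used. The median of the tested members relative to all genes was 0.03 without the wild-type saline pool and -0.29 without the wild-type lead pool. Without the wild-type saline pool 5 tested members passed, all higher in Mt-KO, and without the wild-type lead pool 12 passed, all lower. All genes tested turned in the same way, with 2203 higher and 226 lower calls in the first case and 414 higher and 3966 lower in the second.

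In the saline pools alone, 14 of the 16 tested members had less signal in Mt-KO than wild-type pups relative to the median gene, with a median of -0.27, and all 9 non-clustered tested ones did. In the lead pools 8 were lower and 8 higher, with a median of 0.00. Over all 35 members, by the same subtraction, the medians were -0.02 in saline and -0.03 in lead, where all 18194 genes had 0.08 and -0.07. All 8 neuron markers were above the brightness limit, and 0 passed in any comparison. Their summed linear signal was highest in wild-type saline (165250) and lowest in Mt-KO saline (107572), with 117521 to 154614 elsewhere. Pcdh7, Pcdh8, Pcdh9, Pcdh11x, Pcdh17 and Pcdhb21 had the same extreme pools, and the other tested members did not. This order was not particular to neuron markers, since the summed signalling and actin partners had it too (186521 and 129975). Of all genes tested, 41.6% were highest in wild-type saline and 27.7% lowest in Mt-KO saline. These 2 arrays also had the widest and the narrowest spread over genes (SD 1.25 and 1.12). Summed astrocyte and choroid plexus markers were also lowest in Mt-KO saline (55078 and 22137), but highest in heterozygous lead (84085 and 40039). This order depended on the measure. By the mean log2 level less the median gene, both lists were highest in wild-type lead (2.26 and -0.92). Choroid plexus markers were then lowest in Mt-KO lead (-1.24), and astrocyte markers still in Mt-KO saline (1.85). The summed cerebellar markers were lowest in wild-type saline (32580 against 34899 to 47143), and En2 and Pax6 among them passed as higher with lead. Pituitary markers summed to 6451 in heterozygous lead against 2372 to 2774. Among them Gh and Pomc passed as higher in heterozygotes than in wild-type and than in Mt-KO pups, and Gh also as higher with lead. In the interaction the oligodendrocyte precursor marker Olig2 (-0.48, limma, adjusted p = 0.00567) and the endothelial marker Tek (-0.38, adjusted p = 0.0162) passed as negative. The cerebellar marker Pcp2 passed there as positive (0.42, limma, adjusted p = 0.0395). The part of these markers in the Pcdh differences was not tested.

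In the heterozygous pups 0 of the 16 tested members passed against wild-type, where 0.119% of all genes tested did. At an unadjusted p under 0.05, limma had 1 member, Pcdh17, and 131 of the 10916 genes tested. Against the median of all genes, the tested clustered members had a median difference of -0.06 and the non-clustered ones of -0.03. This comparison shares its wild-type arrays with the one before, and it turned in the same manner. The median of the tested members relative to all genes was 0.06 without the wild-type saline pool and -0.18 without the wild-type lead pool. Between Mt-KO and heterozygous pups 0 members passed (0.156% of all genes did), and 0 had an unadjusted p under 0.05 by limma, against 144 of all genes tested. The wild-type arrays do not enter this difference but do enter its residual spread. Without either wild-type pool more of all genes tested passed, but no member did, and the median of the tested members relative to all genes stayed at -0.08. In the fit to all pools the tested clustered members had a median difference of 0.00 and the non-clustered ones of -0.10. Of the 9 non-clustered ones 2 were above the median gene.

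The next question was whether lead changed the protocadherins. Fitted over the 3 genotypes together, no member passed (0 of 16, against 0.119% of all genes tested). By limma 0 members had an unadjusted p under 0.05, against 167 of all genes tested. GC-RMA and PLIER, the other summaries of the same arrays, also gave 0. The largest fitted lead difference was that of Pcdh17, 0.25 (SE 0.16, adjusted p = 1), and the others lay between -0.06 (Pcdhb3) and 0.16 (Pcdh9). This near-zero average joined genotype pairs that pointed in opposite ways. Without the wild-type pair 12 of the tested members passed, all higher with lead, as did 2461 of all genes tested.

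Lead minus saline was negative for 15 of the 16 tested members in wild-type pups, positive for 16 of 16 in heterozygotes and positive for 15 of 16 in Mt-KO pups, as deposited. All genes tested had the same tilt, since the share of genes higher with lead was 21.2% in wild-type, 84.4% in heterozygous and 75.4% in Mt-KO pups. The medians over all genes tested were -0.18, 0.15 and 0.09. Relative to the median gene of each pair, the tested members were still lower in 15 of 16 in wild-type (median -0.15), higher in 14 of 16 in heterozygous (median 0.11) and higher in 14 of 16 in Mt-KO pups (median 0.07). After quantile normalization 1, 14 and 14 of the 16 were higher with lead. Over all 35 members 15, 18 and 18 (42.9%, 51.4% and 51.4%) were higher than that median, which is one of the bright genes, against 64.4%, 36.2% and 36.0% of all 18194 genes. After quantile normalization 6, 20 and 24 of the 35 were higher with lead in wild-type, heterozygous and Mt-KO pups.

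**Figure D3:**
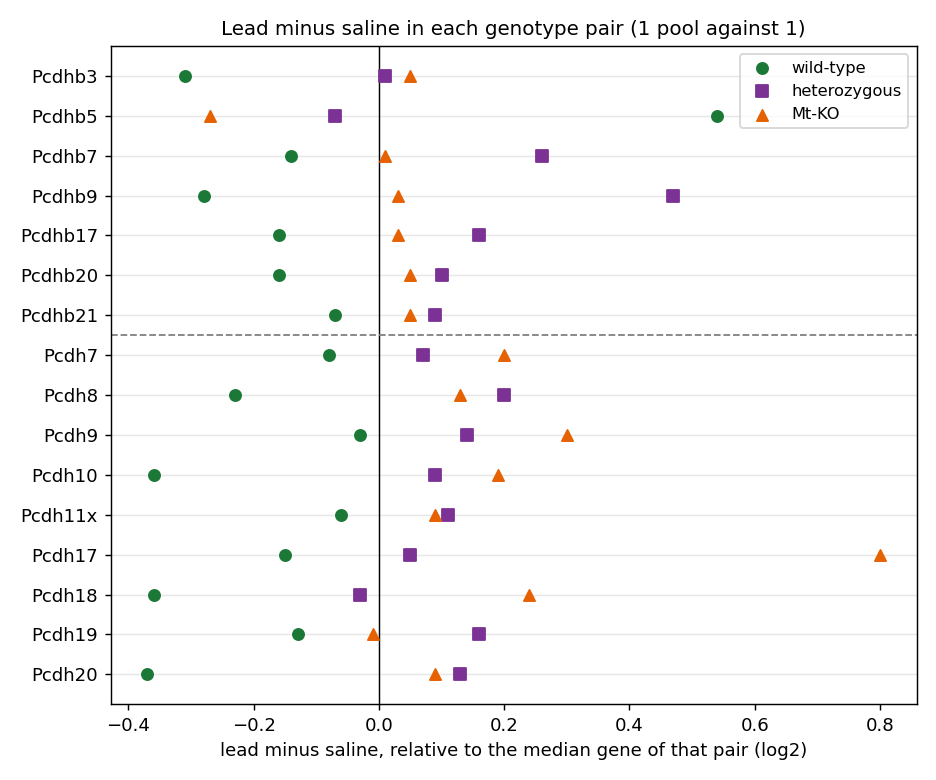
Lead minus saline (log2) of the 2 pools of a genotype after subtracting the median gene, for the 16 tested protocadherins, clustered above the dashed line and non-clustered below, with 1 symbol per genotype pair and 1 pool against 1. The wild-type symbols lie left of 0 for all but Pcdhb5, which stands at 0.54; the heterozygous and Mt-KO symbols lie right of 0 for 14 of 16 members each, and Pcdh17 in Mt-KO stands furthest right at 0.80.

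The interaction of lead with the number of intact alleles covers part of that opposition, on the same arrays from which the opposition was read. Its coefficient is the fitted linear change in the lead difference for each intact allele. With this design it equals the wild-type lead minus saline difference less the Mt-KO one, divided by 2. The heterozygous pair enters only the residual, so a negative value means that lead minus saline was lower in wild-type than in Mt-KO pups. It passed for 4 of the 16 tested members, against 3.77% of all genes tested, and all 4 were negative and non-clustered. Pcdh17 had -0.62 (SE 0.13, limma, adjusted p = 0.00104), Pcdh18 -0.44 (SE 0.11, adjusted p = 0.00857), Pcdh20 -0.37 (SE 0.11, adjusted p = 0.0386) and Pcdh10 -0.41 (SE 0.13, adjusted p = 0.0401). Over all genes tested the median coefficient was itself -0.15, and 365 of the 412 genes that passed were negative. The median was -0.23 for the 7 clustered and -0.32 for the 9 non-clustered members tested. This gap between the classes depended on the setting. With quantile normalization the medians were -0.17 for the clustered and -0.14 for the non-clustered members. With the mean over probe sets both were -0.24, and 2 clustered members and 1 non-clustered member passed. Over all 35 members, with no brightness filter, the medians were -0.08 for the clustered and -0.30 for the non-clustered members, against -0.06 for all genes.

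Pcdh10, a delta-2 protocadherin that links adhesion to actin remodelling through the WAVE complex in growing axons, read 11.95 in wild-type saline, 11.40 in wild-type lead, 11.60 in heterozygous saline, 11.85 in heterozygous lead, 11.45 in Mt-KO saline and 11.73 in Mt-KO lead. Its highest and its lowest pool were thus the 2 wild-type pools. Its 6 probe sets gave interaction estimates of -0.41, -0.31, -0.08, -0.20, -0.25 and -0.38 from the brightest to the dimmest. All were negative, as was the median over all genes tested (-0.15), and the third was nearer to 0 than that median.

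Pcdh18, a delta-2 protocadherin that binds the adaptor Dab1, read 10.64 with saline and 10.10 with lead in wild-type pups, 10.47 and 10.59 in heterozygotes, and 10.42 and 10.76 in Mt-KO pups. The wild-type lead pool was the lowest and the Mt-KO lead pool the highest. Its other probe sets, both dim, gave -0.26 and 0.13. Pcdh20, of the delta-1 group, read 10.82 and 10.27 in wild-type, 10.46 and 10.75 in heterozygous and 10.37 and 10.56 in Mt-KO pups, saline first. Here again the 2 wild-type pools were the highest and the lowest. The dimmer second probe set gave -0.13, against medians of -0.15 over all genes tested and -0.06 with no brightness filter. For the brightest probe set of Pcdh20, lead minus saline was larger in heterozygous pups (0.28) than in Mt-KO pups (0.18). It thus did not go step by step with the alleles.

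In Pcdh17 the Mt-KO pair stood out, since its lead minus saline relative to the median gene was -0.15 in wild-type, 0.05 in heterozygous and 0.80 in Mt-KO pups. The Mt-KO saline and lead pools also differed in the female-specific transcript Xist (12.75 and 10.23) and the Y-linked Eif2s3y (6.50 and 11.16), and the part of sex in the Pcdh17 differences was not tested. The second Pcdh17 probe set gave an interaction estimate of -0.15, which was also the median over all genes tested. Most of the interaction calls were lost under other settings. With each array centred on its median only Pcdh17 passed (-0.48, adjusted p = 0.0312, 20 genes in all), and with quantile normalization, GC-RMA or PLIER no member did, while 1, 0 and 142 genes in all passed. The 4 coefficients stayed negative in each of these, between -0.23 and -0.59. With the coefficients unaltered, 1 member passed without the trend, 1 with no filter and 2 with the upper 40% of genes. No member passed without the wild-type saline pool, and the number passing without each other pool varied, as it did over all genes tested. With 1 pool left out the coefficient lay between -0.75 and -0.49 for Pcdh17 and between -0.60 and -0.27 for Pcdh18. It lay between -0.70 and -0.13 for Pcdh10 and between -0.70 and -0.04 for Pcdh20. Without the wild-type lead pool the coefficient of Pcdh20 was -0.04 and that of Pcdh10 -0.13.

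**Figure D4:**
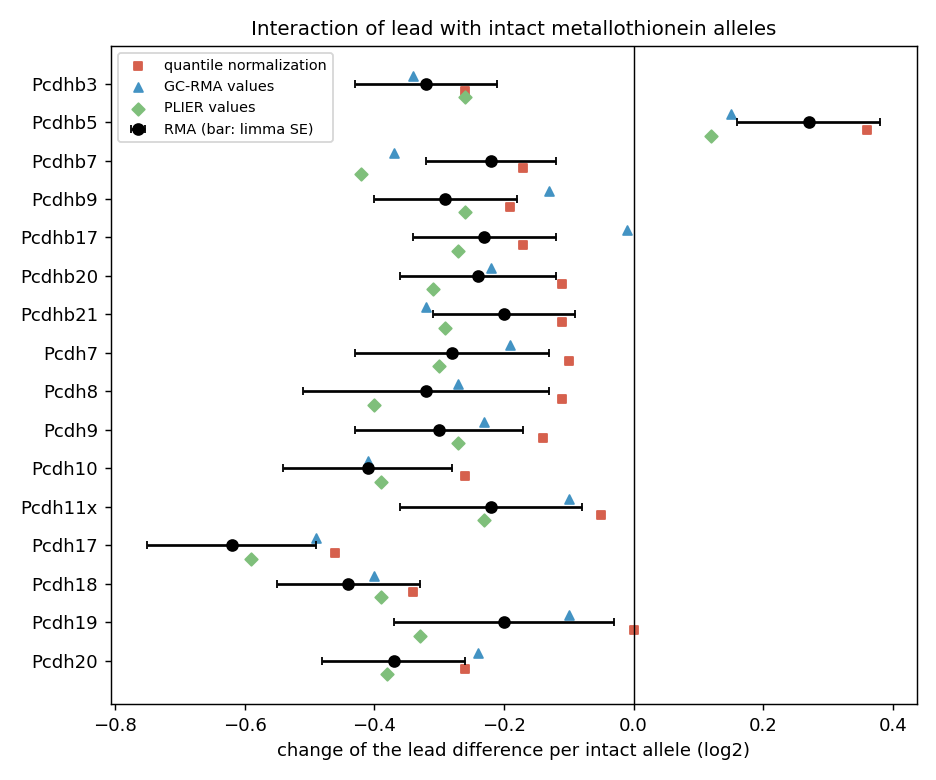
Interaction coefficients (change of lead minus saline per intact allele, log2) of the 16 tested protocadherins, with the RMA value and its limma SE in black and the values after quantile normalization, with GC-RMA and with PLIER in colour. All RMA coefficients but that of Pcdhb5 (0.27) are negative, Pcdh17 (-0.62) is the most negative, and quantile normalization moves most of them toward 0.

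The other delta-2 members did not pass the interaction. Pcdh8, also called arcadlin, is induced by neuronal activity and draws N-cadherin in from the synapse. It read 13.47, 13.06, 13.08, 13.43, 13.01 and 13.23, with the pools ordered wild-type, heterozygous, Mt-KO and saline before lead, and had an interaction of -0.32 (SE 0.19, limma, adjusted p = 0.329). Pcdh19, the X-linked gene of an epilepsy that affects females, read 12.96, 12.65, 12.58, 12.90, 12.59 and 12.68 in the same order, with an interaction of -0.20 (SE 0.17, adjusted p = 0.462). Both were highest in wild-type saline, and the heterozygous lead pool came next. The brightest Pcdh8 probe set carries the suffix x_at, which marks probes that can match other transcripts; its other probe set read 12.86, 12.53, 12.69, 12.97, 12.54 and 12.76 and was highest in heterozygous lead.

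The delta-1 members Pcdh7, Pcdh9 and Pcdh11x did not pass in any comparison. In the same order of pools, Pcdh7 read 12.70, 12.44, 12.44, 12.66, 12.16 and 12.45, with an interaction of -0.28 (adjusted p = 0.290). Pcdh9 read 12.05, 11.84, 11.70, 11.99, 11.65 and 12.05, with -0.30 (adjusted p = 0.180). Pcdh11x, which is X-linked, read 12.15, 11.90, 11.85, 12.11, 11.73 and 11.91, with -0.22 (adjusted p = 0.343). All 3 were lowest in Mt-KO saline. The Mt-KO pools differed in Xist and Eif2s3y, as given for Pcdh17. Across the other 4 pools Xist lay between 11.91 and 12.20, and Eif2s3y between 9.45 (wild-type lead) and 10.45 (wild-type saline). Mt-KO lead minus saline was 0.18 for Pcdh11x and 0.09 for Pcdh19, and the part of sex in these was not tested.

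The remaining 3 non-clustered members were below the brightness limit and were not tested. Pcdh1, a delta-1 protocadherin also found in epithelia, read 8.01, 7.58, 8.36, 7.63, 8.02 and 8.17. Pcdh12, the protocadherin of endothelium, read 8.65, 8.52, 8.90, 8.80, 8.61 and 8.49. Pcdh15, which forms the tip link of hair cells together with Cdh23, read 8.35, 8.21, 8.22, 8.05, 8.35 and 8.28. Pcdh1 and Pcdh12 were highest in heterozygous saline, and Pcdh15 in wild-type saline and Mt-KO saline. Pcdh1 had the widest range among the dim members, 0.79, between heterozygous saline and wild-type lead.

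Among the clustered members that were tested, none passed in any comparison, and 6 of 7 had a negative interaction, as had the 9 non-clustered ones. The median interaction over all genes tested was itself negative, at -0.15. Pcdhb9 read 10.73 with saline and 10.27 with lead in wild-type pups, 9.92 and 10.53 in heterozygotes and 10.02 and 10.15 in Mt-KO pups, a range of 0.82. It had the widest range of the clustered members, with an interaction of -0.29 (SE 0.11, limma, adjusted p = 0.114). Pcdhb3 read 9.99, 9.50, 9.91, 10.07, 9.97 and 10.12, lowest in wild-type lead, with an interaction of -0.32 (adjusted p = 0.0651). Pcdhb5 went against the rest. It read 10.15, 10.50, 10.26, 10.34, 10.39 and 10.21, with the lowest value in wild-type saline and the highest in wild-type lead, and its interaction was 0.27 (SE 0.11, adjusted p = 0.158).

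Pcdhb20, the brightest clustered member, read 11.16, 10.83, 10.82, 11.07, 10.83 and 10.98. Pcdhb21 read 10.45, 10.20, 10.08, 10.32, 9.92 and 10.06. Pcdhb17 read 10.12, 9.78, 9.88, 10.19, 9.95 and 10.08, and Pcdhb7 read 9.84, 9.51, 9.38, 9.78, 9.42 and 9.53. In all 4 the lead pool was the lower one in wild-type and the higher one in the other genotypes, with interactions between -0.20 and -0.24. All genes tested tilted the same way, with 21.2% higher with lead in wild-type, 84.4% in heterozygous and 75.4% in Mt-KO pups. Their median interaction was -0.15. With the mean over all probe sets of a gene in place of the brightest, Pcdhb3, Pcdhb21 and Pcdh20 were the members that passed the interaction. Pcdhb3 has only 1 probe set, so its values and coefficient were unaltered. For it only the estimate of spread and the adjustment over all genes differed in that fit.

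The 16 clustered members that were not tested were Pcdhgc4, Pcdhb1, Pcdhb2, Pcdhb4, Pcdhb6, Pcdhb8, Pcdhb10 to Pcdhb16, Pcdhb18, Pcdhb19 and Pcdhb22. Pcdhgc4, the only gamma gene with a probe set of its own, lay just under the brightness limit with a mean of 9.41. It read 9.52, 9.32, 9.42, 9.45, 9.27 and 9.50, and was highest in wild-type saline and lowest in Mt-KO saline. The 19 dim members had a median range over the pools of 0.30, and in 7 of them wild-type saline was the highest pool. With no brightness filter Pcdh17 alone passed the interaction among the 35 members, and none passed against wild-type.

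The alpha cluster was read only by 6 probe sets annotated to several genes, 3 to 14 alpha genes and 3 to 9, which measure a mixture. The brightest, 1420798_s_at, read 14.34 in wild-type saline, 14.03 in wild-type lead, 13.87 in heterozygous saline, 14.23 in heterozygous lead, 13.58 in Mt-KO saline and 13.88 in Mt-KO lead. It was highest in wild-type saline and lowest in Mt-KO saline, as were 5 of the 12 non-clustered members. Another, 1451769_s_at, read 11.14, 10.68, 10.60, 10.82, 10.61 and 10.90, again highest in wild-type saline. A further one, 1424341_s_at, read 11.61, 11.66, 11.66, 11.87, 11.73 and 11.82 and was lowest in wild-type saline, so these mixtures did not move alike.

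Genes that work with protocadherins were read from lists. Of 17 genes of promoter choice and looping (CTCF, cohesin and chromatin regulators) 14 were tested, and of 19 signalling and actin partners 17 were. None passed in any comparison, and their median interactions were -0.18 and -0.24 against -0.15 over all genes tested. Of 9 tip-link partners of Pcdh15, 3 were tested and none passed. Of 30 other cadherins 19 were tested, with a median interaction of -0.16, and 2 passed as negative. These were Fat4, a giant cadherin of the planar polarity pathway, at -0.45 (SE 0.13, limma, adjusted p = 0.0181), and the classical type II cadherin Cdh9, at -0.40 (SE 0.12, adjusted p = 0.0307). None of the 19 passed for lead or between genotypes.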

How the data were processed

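The RNA pools were each read on 1 array; 18 deposited columns give the 6 arrays in 3 summaries, which are not replicates. The submitters' processing notes name Partek, RMA, GCRMA and PLIER (versions not given in the sources used here). RMA and GC-RMA columns were deposited in log2 units. PLIER columns were deposited as linear intensities, to which 16 was added before taking log2. The deposited RMA arrays had medians over the genes tested that differed (10.87 to 11.05), and each difference between single pools therefore has the median gene subtracted where stated. The kit in the labels is one for whole-transcript arrays, but the probe sets are those of a 3′ array. Nothing in the labels says how the pooled pups relate by litter, and the number of arrays limits the precision.

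Of 45101 probe sets 34958 had 1 gene symbol, 932 several and 9211 none listed, and 34754 of those with 1 symbol were found in the RefSeq gene table by gene identifier, where 0 symbols differed. Fits were made in R 4.3.3 by limma 3.58.1 (eBayes with a trend; two-sided; p-values adjusted over the 10916 genes tested by Benjamini-Hochberg at 0.05), with Python 3.11.15 and pandas 2.3.3 for the tables. One fit was additive in genotype and treatment, and the other held intact alleles (linear), treatment and their product. The additive fit was tested on simulated data, for its lead and Mt-KO comparisons only. The simulated noise was independent, of equal size for all genes and without shifts between arrays. The interaction was not tested in this way. Named were the members that passed, all non-clustered members, the brightest 3 of each cluster and the clustered members tested with the 3 largest rises and falls in the lead, Mt-KO and heterozygous comparisons, and further members only with list, count or range. The members and lists were chosen with earlier results of these data known. Alternatives were GC-RMA, PLIER, quantile normalization, centring, testing all genes or just the upper 40%, averaging probe sets, no trend, and each pool or genotype pair left out.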

Additional observations from a re-analysis of the deposited data

Results flagged for a closer look

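The test of the interaction between lead and intact alleles passed for 4 of the 16 tested members, against 3.77% of all genes tested. The change for each intact allele, taken as linear, was -0.62 for Pcdh17, -0.44 for Pcdh18, -0.41 for Pcdh10 and -0.37 for Pcdh20 (log2, limma, adjusted p = 0.00104, 0.00857, 0.0401 and 0.0386). In Pcdh10, Pcdh18 and Pcdh20 the lead pool was lower than the saline pool in wild-type and higher in the other genotypes. In Pcdh17 the signs were the same, and the Mt-KO pair differed most. All genes tested tilted likewise, with 21.2% higher with lead in wild-type, 84.4% in heterozygous and 75.4% in Mt-KO pups, as deposited. Their median interaction was -0.15. The second probe sets gave -0.15 for Pcdh17, -0.26 for Pcdh18, -0.31 for Pcdh10 and -0.13 for Pcdh20. No combination was replicated, so these differences rest on 1 pool each, and no group was large enough to look for a single array that stood apart from its replicates.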

How the results depend on the processing

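Over the fitted values of the 16 tested members, 784 of 1042 alternative values kept their call, or their lack of one within 1 SE, 155 uncalled values moved further, 52 lost the call, 44 gained it and 7 reversed with a call. Among the 784, 35 values changed sign, as did 59 of the 155. The cause of these changes was not tested, except that leaving out a pool leaves fewer arrays. Against wild-type, the count of members that passed in Mt-KO went from 1 to 0 with GC-RMA, PLIER, quantile normalization, centring, no filter, averaged probe sets and no trend, and lay between 0 and 12 with 1 pool left out. The count in the heterozygote went from 0 to between 0 and 11 with 1 pool left out, and the count for lead lay between 0 and 12 with 1 pair left out. The interaction count of 4 became 0 with GC-RMA, 0 with PLIER and 0 with quantile normalization. It became 1 with centring, 1 with no filter, 2 with the upper 40% of genes and 1 with no trend. With 1 pool left out it varied, as did the count over all genes tested. The median difference of clustered members between Mt-KO and wild-type was -0.14 with GC-RMA and -0.20 to -0.02 with 1 pool left out. Between Mt-KO and heterozygous it was -0.15 with GC-RMA and -0.10 to 0.09, and for non-clustered members -0.04 with the mean over probe sets and -0.19 to 0.03. With 1 pair left out, the lead difference of Pcdh10 lay between -0.15 and 0.26, of Pcdh18 between -0.21 and 0.23 and of Pcdh20 between -0.18 and 0.23, and passed as higher without the wild-type pair. With 1 pool left out, Mt-KO minus wild-type lay between -0.49 and 0.32 for Pcdh10 and -0.48 and 0.31 for Pcdh20, both passing as higher without wild-type saline and as lower without wild-type lead. Heterozygous minus wild-type lay between -0.35 and 0.45 for Pcdh10 and -0.34 and 0.45 for Pcdh20, again passing as higher without wild-type saline and as lower without wild-type lead. The signal above background limits the 19 dim members, and a single pool for each combination limits all of them.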
